A study of Mus musculus with 2 samples.

Results

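Background potassium channels hold the resting membrane potential of a cell near the potassium equilibrium potential. In the zona glomerulosa, the outer layer of the adrenal cortex, they keep the aldosterone-making cells hyperpolarised at rest. Angiotensin II or raised extracellular potassium depolarises these cells, calcium enters through voltage-gated channels, and aldosterone synthase is induced. Most background channels belong to the two-pore-domain (K2P) family, whose subunits carry a pair of pore loops and work as dimers. Kcnj5 encodes a G-protein-gated inward rectifier with 1 pore loop per subunit, known from mutations of its selectivity filter in human aldosterone-producing adenomas.

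The 10 genes described here were chosen by name, 9 K2P genes (Kcnk1, Kcnk2, Kcnk3, Kcnk5, Kcnk6, Kcnk9, Kcnk10, Kcnk12 and Kcnk13) and Kcnj5. All 10 were found among the 55536 genes of the gene table. The libraries were made from total RNA of whole adrenal glands of 2 female mice, aged 18 to 20 months, of the strain B6CASTF1/J, an F1 cross of C57BL/6J and CAST/EiJ. They form 1 group with no treatment, numbered 1 and 2 here by their labelled biological replicate. The labels number the females and the tissue samples differently but repeat 1 donor identifier for both, and 1 description field of animal 2 repeats that of animal 1. That they are 2 animals is a reading of the replicate and female numbers. The design holds no second age, sex, genotype or treatment, so the differences given below describe 2 gland samples and carry no p-value.

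Expected counts, which are estimated reads per gene that need not be whole, summed to 35769717 in animal 1 and 35135703 in animal 2. The upper limit that a count of 0 leaves, 3 counts, equals 0.0839 CPM (counts scaled to library size) in animal 1 and 0.0854 CPM in animal 2, counting error only. The gland label was checked against marker genes. Detection here means 1 TPM or more (a level corrected for transcript length and library size) in the gene table of each library. All 6 steroidogenic cortex genes, all 6 zona glomerulosa genes and all 8 chromaffin genes were detected, while none of 6 kidney genes was. Whole glands mix all of these cells, so fewer cells of a type and less RNA per cell cannot be told apart. Markers of other cells and tissue differed between the glands in both directions. The adipocyte genes (7) summed to 3344 TPM in animal 1 and 2114 in animal 2, and the striated muscle genes (7) to 163 and 0.34 TPM. Both X-zone genes, which mark cortex next to the medulla, were higher in animal 2, with 116 and 1034 TPM for Akr1c18 and 1.52 and 13.2 TPM for Pik3c2g.

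The selectivity filter, the stretch of each pore loop that lets potassium pass, shows how the members resemble and differ from each other. The coding bases around the first filter are printed here for the 4 most abundant members and for Kcnj5, from the GENCODE M21 transcripts, 5′ to 3′ on the coding strand. These bases and the sequence comparisons below come from the reference. Whether the CAST/EiJ alleles of these animals differ there, or were counted differently, was not tested. Capitals mark the 3 codons of the filter's glycine, aromatic residue and glycine.
Kcnk3: gtcatcaccaccatcGGCTATGGTcatgcg
Kcnk9: gtcatcacaactatcGGATATGGAcatgct
Kcnk2: gttatcacaaccataGGATTTGGAaacatc
Kcnk5: gtcatcaccaccatcGGTTATGGCaatgtg
Kcnj5: acagaaacaaccattGGGTATGGCttcaga
The middle codon reads tyrosine in Kcnk3, Kcnk9, Kcnk5 and Kcnj5 and phenylalanine in Kcnk2. Of the 30 bases, Kcnk5 matched Kcnk3 at 26, Kcnk9 at 25, Kcnk2 at 19 and Kcnj5 at 14. The Kcnk3 stretch began at base 30588584 of chromosome 5 (mm10, plus strand) and ended at base 30621904, since the intron between the 2 exons lies inside it. An intron split the first stretch in all 9 K2P genes and the second in none. Among the 9 K2P genes the middle codon of the first filter was tyrosine in 6 and phenylalanine in 3, and that of the second was phenylalanine in 7 and leucine in 2. The Kcnj5 stretch lies within exon 3 of 4 (chr9:32322553-32322582, minus strand).

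The second filter is shown for the 2 acid-sensitive TASK channels, Kcnk3 and Kcnk9, the most abundant members. Both stretches lie in exon 2 of 2, at chr5:30622193-30622222 on the plus strand for Kcnk3 and at chr15:72512713-72512742 on the minus strand for Kcnk9.
Kcnk3: accctcaccaccatcGGCTTCGGCgactat
Kcnk9: acattgactactataGGGTTCGGCgatttt
They matched at 21 of 30 bases. Over 1182 aligned coding bases Kcnk3 and Kcnk9 were 67.8% identical, and the longest run they shared without a mismatch was 20 bases. No window of 100 bases in any of the 31 annotated transcripts of the 10 genes occurred on the same strand in a transcript of another gene (0 of 77792 windows).

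Kcnk3 carried most of the signal of this gene group. It encodes TASK-1, an acid-sensitive leak channel of glomerulosa cells (ENSMUSG00000049265.7, mm10 chromosome 5, 30588170 to 30625271, plus strand). Its level was 409 TPM in animal 1 and 433 TPM in animal 2, from 57325 and 54467 expected counts, a mean of 421 ± 17.5 TPM (SD, n = 2). By mean TPM it ranked 114 among the 55536 genes in these whole glands. Which of their cells carried the Kcnk3 transcripts was not tested. The 10 genes summed to 448 ± 17.5 TPM, of which Kcnk3 made up 93.7% in animal 1 and 94.1% in animal 2. The other 9 genes together had 27.5 and 27.4 TPM. In the second quantification, a separate estimate of transcript levels, Kcnk3 had 712 and 723 TPM and made up 93.0% and 93.7% of the sum.

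Among all 93 protein-coding genes whose symbol is Kcn followed by letters and a number, a group that also holds auxiliary subunits, 24 were detected. Kcnk3 held 74.2% of their summed TPM in animal 1 and 74.8% in animal 2. The next 2 genes, named after their values were seen, were no background channels: the calcium-activated channel Kcnn2 had 35.6 and 48.1 TPM and Kcnma1 had 17.1 and 15.98 TPM. Kcnk9, Kcnk2 and Kcnk5 held ranks 4, 5 and 8 of the group. Set against aldosterone synthase, Cyp11b2, which had 200.4 and 166 TPM, Kcnk3 was 2.04-fold higher within library 1 and 2.62-fold higher within library 2, and 1.44-fold and 1.94-fold higher in the second quantification.

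**Figure D1:**
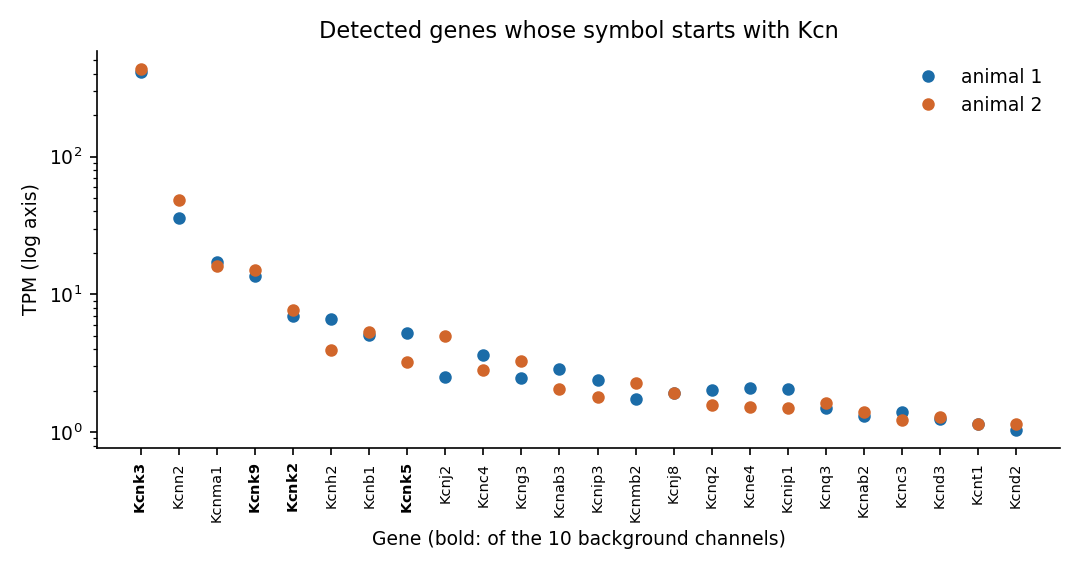
TPM (log axis) of the 24 detected genes whose symbol starts with Kcn, ordered by mean, with 1 point per animal and members of the background channel group in bold. Kcnk3 stands at 409 and 433 TPM, above Kcnn2 at 35.6 and 48.1 TPM.

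The second TASK channel was far less abundant than the first. Kcnk9, which encodes TASK-3 (ENSMUSG00000036760.7, chromosome 15, 72501089 to 72546340, minus strand), had 13.6 and 14.9 TPM, a mean of 14.25 ± 0.948 TPM (SD, n = 2). Its single annotated transcript of 12300 bases gave 6439 and 6460 expected counts. Within each library Kcnk3 exceeded Kcnk9 30.1-fold in animal 1 and 29.05-fold in animal 2, or by 4.89 ± 0.04 on the log2 scale. The second quantification gave 31.05-fold and 30.9-fold, so this ratio varied little between the animals and between the quantifications. Both quantifications use the same reads and this annotated length of Kcnk9. Whether the glands use a shorter Kcnk9 transcript, which would change the ratio, was not tested.

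The mechanosensitive and lipid-sensitive TREK channels were represented almost wholly by Kcnk2. Kcnk2, which encodes TREK-1 (chromosome 1, 189207930 to 189402273, minus strand), had 6.97 and 7.69 TPM, from 708 and 716 expected counts. Kcnk10, which encodes TREK-2 (chromosome 12, 98429437 to 98578310, minus strand), had 2 and 1 expected counts, too few for a ratio between the animals. Its estimated counts in the second quantification were 5.44 and 6.09. Kcnk3 exceeded Kcnk2 58.6-fold and 56.4-fold within the libraries.

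Kcnk5 was the detected member whose level differed most between the animals. It encodes TASK-2, an alkaline-sensitive channel also known from kidney epithelium (chromosome 14, 20140057 to 20181809, minus strand). It had 5.24 TPM in animal 1 and 3.23 in animal 2, from 647 and 378 expected counts. Scaled with TMM, a method that sets the libraries on a common scale, the log2 ratio of animal 2 over animal 1 was -0.69 (95% counting interval -0.88 to -0.51), so the scaled count was 1.62-fold higher in animal 1. It was -0.47 when scaled by the spike-ins and -0.76 in the second quantification. Across the 13569 genes whose mean count reached 50, 9.67% differed by this much or more in either direction. In the gene table the 6 kidney markers were all below 1 TPM and summed to 1.40 TPM in animal 1 and 1.69 in animal 2. Slc12a1 was at 0 counts in both, while Lrp2 had 134 and 166 expected counts. Slc34a1, with 62 and 68 expected counts, reached 1.06 and 2.37 TPM in the second quantification. Every gene of 5 other marker lists was higher in animal 1 with TMM scaling. The median log2 ratio was -9.80 for striated muscle (7 genes), -0.80 for glia (4), -0.68 for adipocytes (7), -0.48 for smooth muscle and capsule (6) and -0.33 for chromaffin cells (8). With spike-in scaling 3 of the chromaffin and 1 of the smooth muscle genes turned to animal 2. Other lists went the other way with TMM scaling. All 5 macrophage and all 2 X-zone genes were higher in animal 2, with medians of 0.35 and 3.24. So were 4 of 6 steroidogenic cortex genes (median 0.38) and 3 of 5 endothelium genes (0.09), but only 2 of 6 zona glomerulosa genes (-0.10). The part of all these cells in the Kcnk5 difference was not tested.

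The TWIK and THIK channels lay below the detection threshold of 1 TPM. Kcnk1, which encodes TWIK-1 (chromosome 8, 125995170 to 126030685, plus strand), had 0.56 and 0.42 TPM from 45 and 28 expected counts. Kcnk6, which encodes TWIK-2 (chromosome 7, 29221926 to 29232515, minus strand), had 0.39 and 0.52 TPM from 60 and 71 counts. Which of these weakly rectifying channels was higher differed between the animals, and their deposited TPM intervals overlapped within each library. Kcnk13, which encodes the halothane-inhibited THIK-1 (chromosome 12, 99964499 to 100062682, plus strand), had 0.30 and 0.37 TPM from 34 and 39 counts. Its relative Kcnk12, which encodes THIK-2 (chromosome 17, 87745801 to 87797994, minus strand), had 0.05 and 0.08 TPM from 4 and 5 counts.

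Kcnj5 was the member whose value depended most on the quantification. It encodes GIRK4 (ENSMUSG00000032034.6, chromosome 9, 32314707 to 32344350, minus strand). In the gene table it had 0.35 TPM in animal 1 and 0.13 in animal 2, from 63 and 21 expected counts. In the second quantification it had 1.92 and 3.17 TPM, from 142 and 179 estimated counts, 5.48-fold and 24.4-fold above the gene table. The direction turned with it: the log2 ratio of animal 2 over animal 1 was -1.48 (95% counting interval -2.29 to -0.77) in the gene table and 0.35 in the second. The excess lay in the shorter transcripts. Kcnj5-203 had 48.7 and 159.5 estimated counts in the second quantification against 0 and 0.51 in the first, while the longest transcript Kcnj5-201 had 60.5 and 19.4 against 63 and 20.5. At a window of 31 bases, Kcnj5-203 holds 27 windows that no other transcript of Kcnj5 has, and 2 that also occur in other genes. Whether these bear on the difference was not tested.

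**Figure D2:**
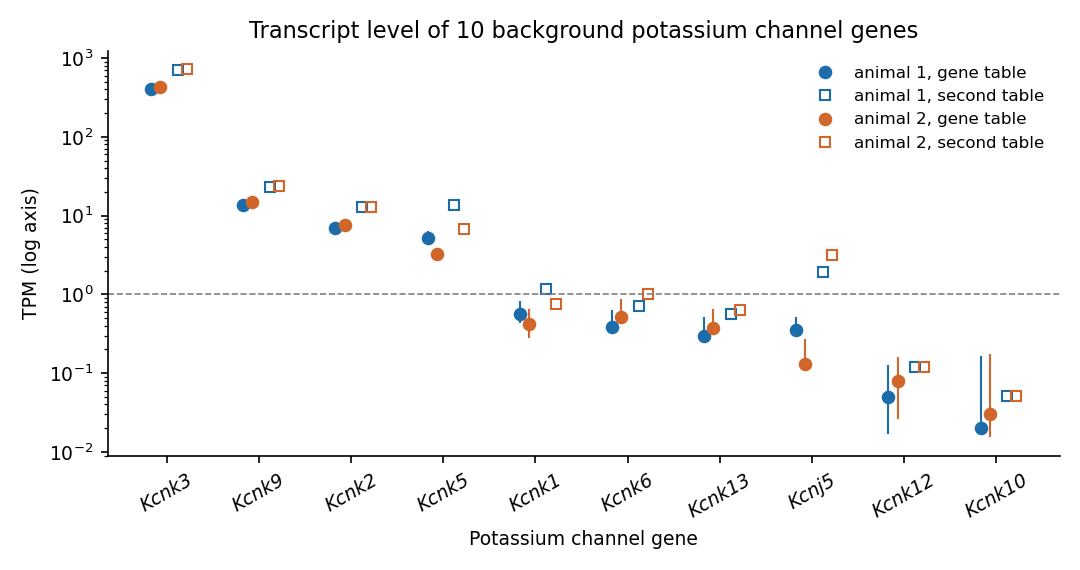
TPM (log axis) of the 10 genes in order of mean level, with filled circles for the gene table, vertical lines for its deposited interval bounds, open squares for the second quantification and colours for the animals. The dashed line marks 1 TPM. Kcnk3 stands at 409 and 433 TPM, and the 2 quantifications are furthest apart for Kcnj5.

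The order of levels was the same in both animals for the first 4 genes, Kcnk3, Kcnk9, Kcnk2 and Kcnk5, and the deposited TPM intervals of neighbours in this order did not overlap in either library. The bounds cover a posterior estimate and not the printed TPM, which for Kcnk3 lay above its own interval in both libraries (397 to 406 TPM in animal 1 and 419 to 431 in animal 2). In the second quantification Kcnk5, with 13.7 TPM, exceeded Kcnk2, with 12.8, in animal 1. In the gene table Kcnk5 was 9.36-fold and 7.69-fold above the next gene, Kcnk1. In the second quantification Kcnj5, with 1.92 and 3.17 TPM, came next after these 4 genes in both animals. It stood there above Kcnk1 (1.16 and 0.75 TPM), Kcnk6 (0.71 and 1.00 TPM) and Kcnk13 (0.56 and 0.64 TPM). Further down the order of the gene table, no pair of neighbours had separate intervals in both libraries. Kcnk1 with Kcnk6, Kcnk6 with Kcnk13 and Kcnk12 with Kcnk10 overlapped in both. Kcnj5 overlapped with Kcnk13 in animal 1 and lay below it in animal 2, and it lay above Kcnk12 in animal 1 and overlapped with it in animal 2.

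The 3 most abundant members, Kcnk3, Kcnk9 and Kcnk2, were close between the animals, while Kcnk5 and, in the gene table, Kcnj5 were higher in animal 1. None of the 5 members whose mean count reached 50 (Kcnk3, Kcnk9, Kcnk2, Kcnk5 and Kcnk6) was at least 2-fold apart with intervals that did not overlap, against 3.46% of the 13569 genes tested (1.75% higher in animal 1 and 1.71% higher in animal 2). No member was called with DESeq2 size factors (3.4% of genes called), spike-in scaling (4.02%), TPM ratios (3.86%) or a minimum of 100 counts (2.85%). The second quantification, called without the interval part of the rule, gave none either, against 3.84% of 13774 genes. Without a count minimum 1 member was called, Kcnj5, with a mean of 42 counts, against 3.01% of genes. The intervals of the animals alone did not overlap for 3 of the 5, and for 33.1% of the genes tested. Kcnk3 and Kcnk9 were higher in animal 2 by this measure, like 20.7% of genes, and Kcnk5 was higher in animal 1, like 12.3% of genes. The log2 ratio was 0.01 for Kcnk3 (95% counting interval -0.01 to 0.03), 0.09 for Kcnk9 (0.04 to 0.14) and 0.10 for Kcnk2 (-0.05 to 0.25). With spike-in scaling these became 0.23, 0.31 and 0.32, a scaling that moved the median over the same 13569 genes from -0.01 to 0.21. In the second quantification Kcnk3 had -0.03, the opposite sign. Over the 8 members whose mean count reached 10 the median was 0.05, beside -0.01 over the 17012 genes at that level. Kcnk6 had 0.32, Kcnk13 0.28 and Kcnk1 -0.59, all with counting intervals that include 0. The zona glomerulosa markers summed to 459.5 TPM in animal 1 and 446 in animal 2, but single markers differed both ways. With TMM scaling 4 of the 6 were higher in animal 1 and 2 in animal 2. The log2 ratio was -0.32 for Cyp11b2 and 0.37 for Agtr1a, each with intervals that did not overlap.

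**Figure D3:**
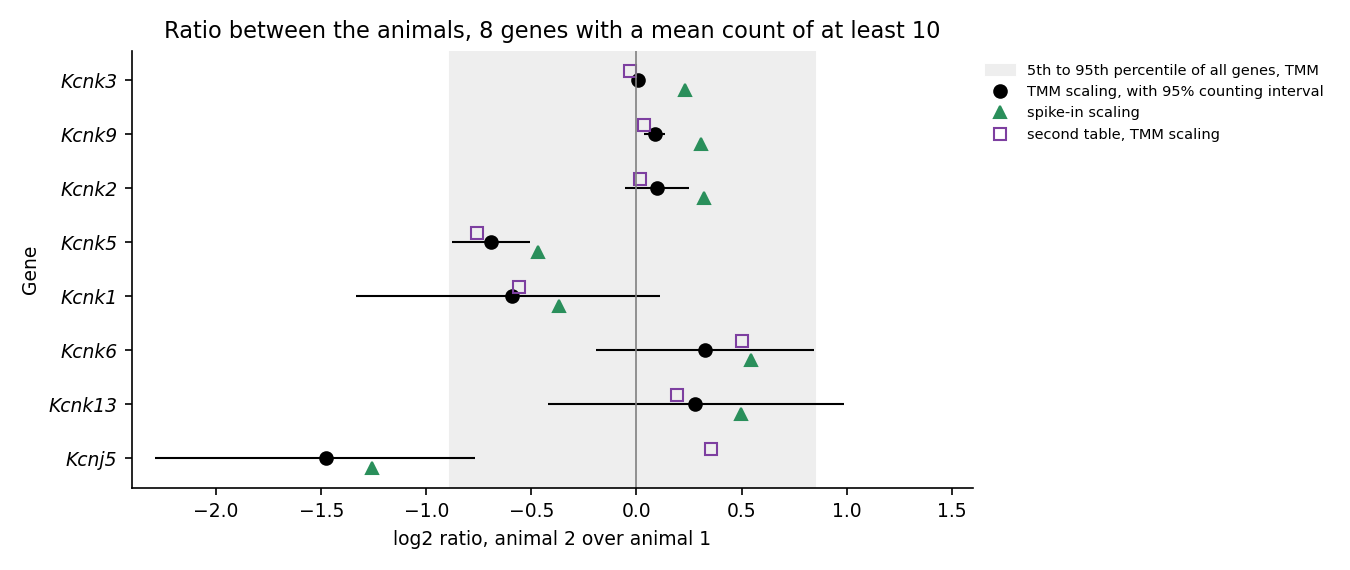
Log2 ratio of animal 2 over animal 1 for the 8 genes whose mean count reached 10, with the 95% counting interval for TMM scaling as a line, triangles for spike-in scaling and squares for the second quantification. The grey band spans the 5th to the 95th percentile of 17012 genes, from -0.88 to 0.85. Kcnj5 at -1.48 lies outside it, and at 0.35 inside it in the second quantification.

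The annotated transcripts differed in how firmly they were assigned. For Kcnk3, the coding transcript Kcnk3-201 of 3811 bases held 96.9% and 94.8% of the gene's TPM. The short non-coding Kcnk3-202 had 12.7 and 22.4 TPM in the first transcript table and 4.37 and 36.2 TPM in the second. For Kcnk2, the transcript annotated for nonsense-mediated decay, Kcnk2-203, held 51.1% and 57.9% of the gene's TPM in the first table, and 30.1% and 27.6% in the second, where the coding Kcnk2-201 held 27.0% and 29.1%. For Kcnk5, the short non-coding Kcnk5-202 of 654 bases took 38.8% and 24.2% of the TPM in the second table, from 44.2 and 13.6 estimated counts, against 4.38% and 0% in the first. The coding Kcnk5-201 alone had 8.42 and 5.09 TPM there. Kcnk9 and Kcnk12 have a single annotated transcript each.

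**Figure D4:**
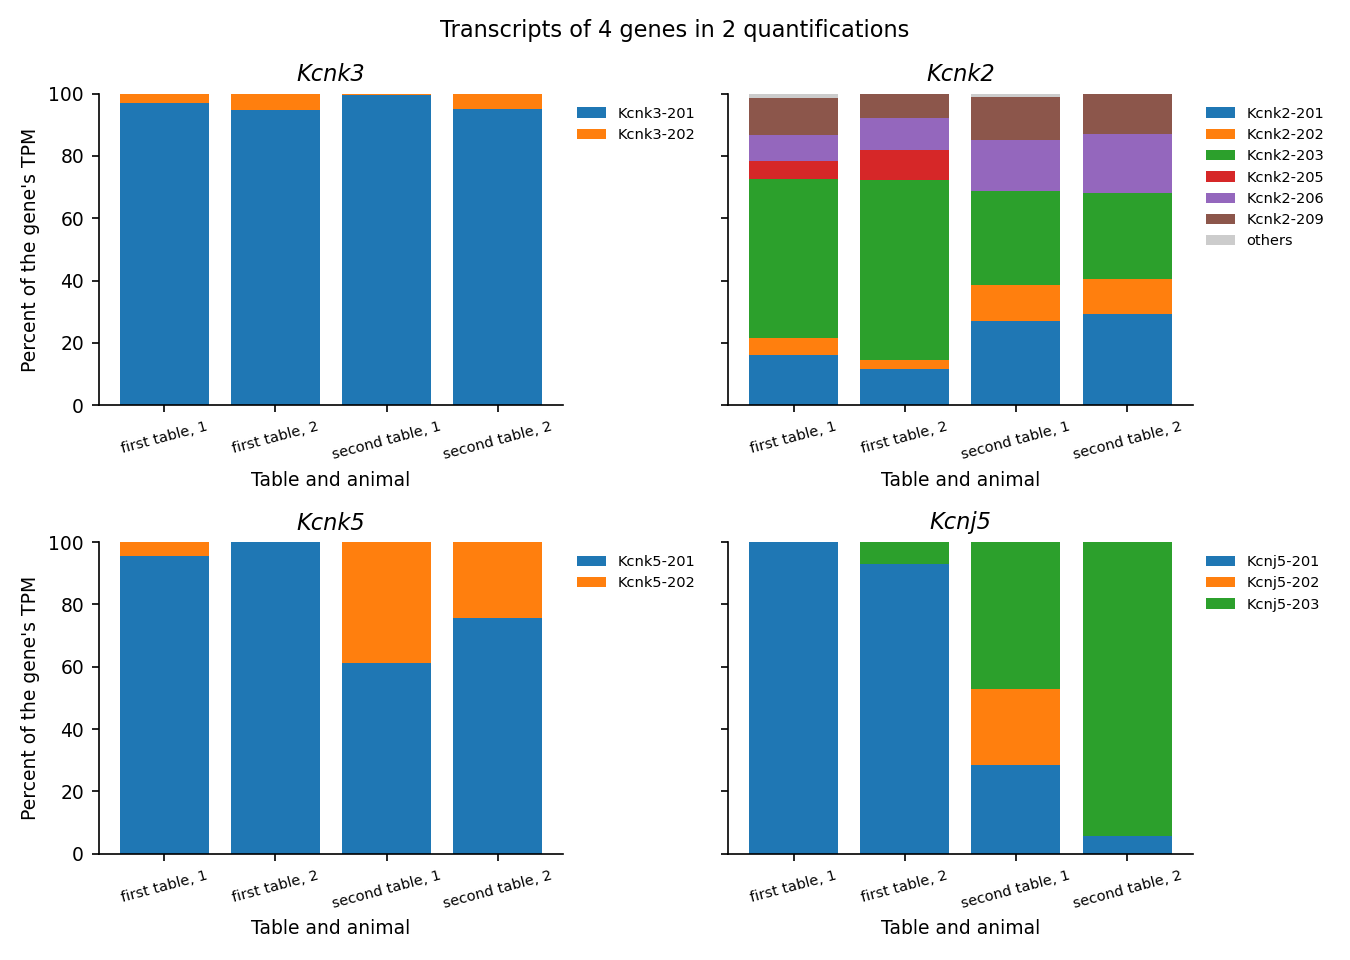
Percent of the gene's TPM held by each annotated transcript of Kcnk3, Kcnk2, Kcnk5 and Kcnj5, with 1 bar for each animal in the first and in the second transcript table. Kcnk3-201 holds most of its gene in every bar, while the leading transcript of Kcnj5 changes from Kcnj5-201 to Kcnj5-203.

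Gm9899, a gene on the opposite strand annotated as a processed transcript, overlaps Kcnk3. It had 603 and 624 expected counts, or 3.61 and 4.45 TPM. The kit keeps the strand of the transcript, but no source used here says whether the counting used it. The 3712 windows of 100 bases in Kcnk3-201 had 131 matches on the opposite strand of other genes' transcripts, counted per window and gene. Kcnk1, Kcnk2 and Kcnk10 have opposite-strand neighbours annotated as antisense. Their expected counts were 0 for Gm45875 at Kcnk1 and Gm40893 at Kcnk10, and 3 in each animal for A430027H14Rik at Kcnk2. On the strand of Kcnk2 itself lies the pseudogene Pdcd5-ps, with 67.5 and 15.98 expected counts in the gene table and 0 in the second quantification.

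The remaining K2P genes were nearly silent in these glands. Kcnk15, Kcnk16 and Kcnk18 were at 0 expected counts in both libraries. Kcnk7 had 0 and 1, and Kcnk4, the mechanosensitive TRAAK channel, had 10 and 5. The GIRK subunits that can pair with Kcnj5 were also below 1 TPM. Kcnj3 had 0.49 and 0.28 TPM, Kcnj6 0.56 and 0.28 TPM, and Kcnj9 0.06 and 0.01 TPM. In the gene table Kcnj5 was lower than Kcnj3 in both animals, by 0.80 ± 0.44 on the log2 scale, but in the second quantification it was higher, by 2.04 ± 1.14.

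Of the 31 genes of aldosterone control outside the channel group, 29 were detected. Of the 29 whose mean count reached 50, 1 was at least 2-fold apart, beside 3.46% of the 13569 genes tested. This was Clcn2, which encodes a chloride channel of glomerulosa cells mutated in familial hyperaldosteronism. It had 7.10 and 15.9 TPM and a scaled count 2.14-fold higher in animal 2. The 30 genes whose mean count reached 10 had a median log2 ratio of -0.02 with TMM scaling and 0.20 with spike-in scaling. Kcnk3 stood above all of them except Star by mean TPM. The angiotensin receptors Agtr1a and Agtr1b had 71.9 and 102 TPM and 2.90 and 2.80 TPM. The calcium channels that open on depolarisation were less abundant than Kcnk3, with 33.9 and 25.3 TPM for the T-type Cacna1h. Of the L-type channels, Cacna1c had 21.2 and 25.4 TPM and Cacna1d 2.36 and 3.75 TPM. The calcium pump gene Atp2b3 had 13.6 and 15.9 TPM.

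**Figure D5:**
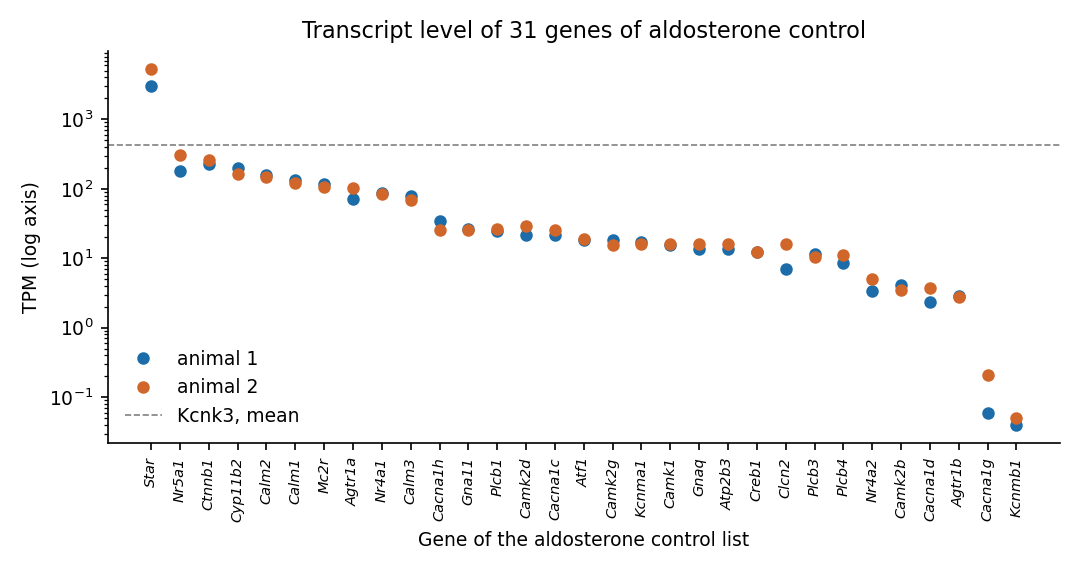
TPM (log axis) of the 31 genes of the aldosterone control list in order of mean level, with 1 point per animal. The dashed line marks the mean of Kcnk3, 421 TPM, which Star alone exceeds. Clcn2 is the gene at least 2-fold apart, beside 3.46% of the 13569 genes tested.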

How the data were processed

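Total RNA was sequenced from 1 library per animal, each from 300 ng of RNA with ERCC spike-ins and a directional kit, per the labels. Expected counts and TPM of the gene table and the first transcript table were deposited by the authors, derived from a transcriptome alignment to mm10 with annotation M21, per the deposited file descriptions. The authors also deposited a second transcript table with estimated counts and its own TPM, derived from the read files and an index. No source used here names the programs or their versions. Length minus effective length is 99 bases in the first tables and 323 to 328 in the second, for transcripts over 1000 bases, which raises the TPM of short transcripts in the second. Interval bounds of TPM were deposited with no level given.

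Symbols came from the second table, joined by gene identifier, and coordinates from GENCODE M21 on GRCm38. Expected counts were rounded and scaled with TMM (edgeR 4.0.16, R 4.3.3) over 55536 genes, without 96 spike-ins, 1 phage control and 26248 entries named by a number. A log2 ratio adds 0.5 to each count. A gene was called 2-fold apart at a scaled ratio of 2, a mean count of at least 50 and intervals that do not overlap. In the second table the call used the ratio and the count only. Counting intervals are exact binomial (95%) on the counts of 1 library per animal, so they cover counting error only. The reads carry no molecular identifiers, and the intervals take no account of duplicate reads. Scaling and the count part of this rule were tested on simulated data. DESeq2 1.42.0 size factors, spike-in scaling, TPM ratios, other thresholds, the second table and leaving out each animal were tried.

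Named genes are all members, the remaining K2P genes, the GIRK partners and a set of aldosterone control and marker genes listed by name, with any of these at least 2-fold apart. The members and lists were chosen with earlier results of these data known. A listed gene of aldosterone control is not reported here. RefSeq promoters of Kcnk3 and Kcnk9 and protein sequences were not used here, and no genes were ranked by likeness of pattern, since 2 libraries give none.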

Additional observations from a re-analysis of the deposited data

How the results depend on the processing

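The summed level of the 10 genes, 448 TPM, was 769 TPM in the second transcript table and 1484 TPM when rescaled over nuclear protein-coding genes, and 436 to 461 TPM in single animals. The Kcnk3 share of this sum was 93.3% in the second table, 93.9% after rescaling and 93.7% to 94.1% in single animals. The 4 members detected remained 4 in number at a TPM of 0.5 or 2, and in either animal alone. They were 5 in the second table and 8 at an expected count of at least 10 in both libraries. No member was called at least 2-fold apart with DESeq2 size factors, spike-in scaling, TPM ratios or a mean count of 100. The second table, called without intervals, gave none either. Without a count minimum 1 was called, Kcnj5, against 3.01% of 26075 genes. The log2 excess of Kcnk3 over Kcnk9, 4.89, was 4.95 in the second table and 4.86 to 4.91 in single animals. In the second table the log2 ratio of Kcnj5 between the animals turned to 0.35, and that of Kcnj5 over Kcnj3 within a library to 2.04, for a cause that was not tested. The ratio of Kcnk3 between the animals also changed sign, from 0.01 to -0.03, and that of Kcnk10, at 1 and 2 counts, differed in sign between settings. No paired analysis was possible because there is 1 group. Ratios between the animals cannot be made without either animal. With 1 library per animal, differences between glands and between library preparations cannot be told apart, and below about 1 TPM the counts (1 to 71 per member) set the precision.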
